A study of Mus musculus with 6 samples.

Results

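The genes described here are the ErbB receptors and the EGF family ligands expressed in organoids of KPF_5.3G, a mouse pancreatic ductal adenocarcinoma (PDAC) line. They were chosen by name: the receptors Egfr, Erbb2 and Erbb3, and the ligands Areg, Ereg, Hbegf, Tgfa, Btc and Nrg1. All 9 were found among the 14254 genes of the table, and all 9 passed the filter on low values. RNA sequencing covered 3 libraries labelled shCtrl, carrying a control hairpin (short hairpin RNA, shRNA), and 3 labelled shJag1_3, with a lentiviral shRNA against Jag1, a membrane-bound ligand of the Notch receptors. All 6 carried the genotype label WT, and the knockdown rests on 1 line and 1 hairpin. Both groups grew in the same medium, which held EGF itself at 50 ng/mL, FGF-10 at 100 ng/mL, gastrin, R-spondin-1 and Noggin. The study asked how Jag1 acts on CD9-high tumour-initiating cells in a hybrid state between epithelial and mesenchymal.

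ErbB receptors are tyrosine kinases of the cell surface that work in pairs. EGFR binds EGF, amphiregulin (Areg), epiregulin (Ereg), heparin-binding EGF-like growth factor (Hbegf), transforming growth factor alpha (Tgfa) and betacellulin (Btc). ERBB3 binds neuregulin (Nrg1), has a weak kinase of its own and recruits PI3K, while ERBB2 has no known ligand and is the partner that the other receptors prefer. The ligands are made as membrane proteins and are released by proteases, and the receptors signal through RAS and ERK and through PI3K and AKT. In the pancreas, EGFR and its ligands take part in the change of acinar cells into duct-like cells.

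From 22110664 to 35010147 reads per library fell on genes. Values are normalised read counts (reads divided by 1 size factor per library), groups are given as mean ± SD (n = 3), and differences are log2 values, knockdown minus control, with standard error (SE). Both replicate 1 libraries stood apart from the other 4. The mean of replicates 2 and 3 differed from replicate 1 by more than 1 log2 unit for 24.4% of tested genes in the controls and 18.4% in the knockdowns. Among the 9 ErbB genes this held for 5 in the controls and 7 in the knockdowns. Between knockdown and control of the same replicate number, 4.56%, 16.8% and 15.0% of genes differed by more than 1 log2 unit in replicates 1, 2 and 3, against 0, 2 and 5 of the 9 ErbB genes. Results are therefore given with and without replicate 1. Jag1 itself stood at 412, 983 and 847 in controls 1, 2 and 3 and at 226, 321 and 557 in knockdowns 1, 2 and 3. It was lower within each replicate number, with ratios of 0.55, 0.33 and 0.66, but the groups overlapped. Its limma difference was -1.03 (SE 0.45, adjusted p = 0.691), and it was called lower by DESeq2 with the replicate number as a term (-1.02, adjusted p = 0.0063). That call was lost without pair 2 (-0.73, adjusted p = 0.773) and without pair 3 (-1.24, adjusted p = 0.0829). DESeq2 without the term did not call Jag1 (adjusted p = 0.435).

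Of the 9 ErbB genes, Erbb3 was higher and Nrg1 lower in every knockdown library than in every control library, and Areg was higher in knockdowns 2 and 3 only. The main test, limma on all 6 libraries without a replicate term, called no gene at an adjusted p below 0.05 (0% of 13997 genes). The adjusted p of the 9 genes ran from 0.606 to 0.973. At an unadjusted p below 0.05 the main test held 2 of the 9 and 1021 genes in all. limma with a term for the replicate number called 0.0143% of genes and none of the 9. edgeR called 0 genes without that term and, with it, 2 genes, none of them among the 9. DESeq2 with the term called 4.73% of 13454 genes higher, among them Erbb3, and 2.71% lower, among them Nrg1. limma on replicates 2 and 3 alone called 6.04% of genes higher, among them Erbb3 and Areg, and 3.57% lower, among them Nrg1. Groups did not overlap for 2 of the 9 genes (Erbb3 and Nrg1), against 11.7% of all genes. Nrg1 passed the filter on low values through the controls, where it was high, so its calls and lack of overlap are descriptions. The difference had the same sign in all 3 replicate numbers for 3 of the 9 (Egfr, Erbb3 and Nrg1), against 42% of all genes. The median difference was 0.21 over the 9 genes and 0.00 over all tested genes.

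**Figure D1:**
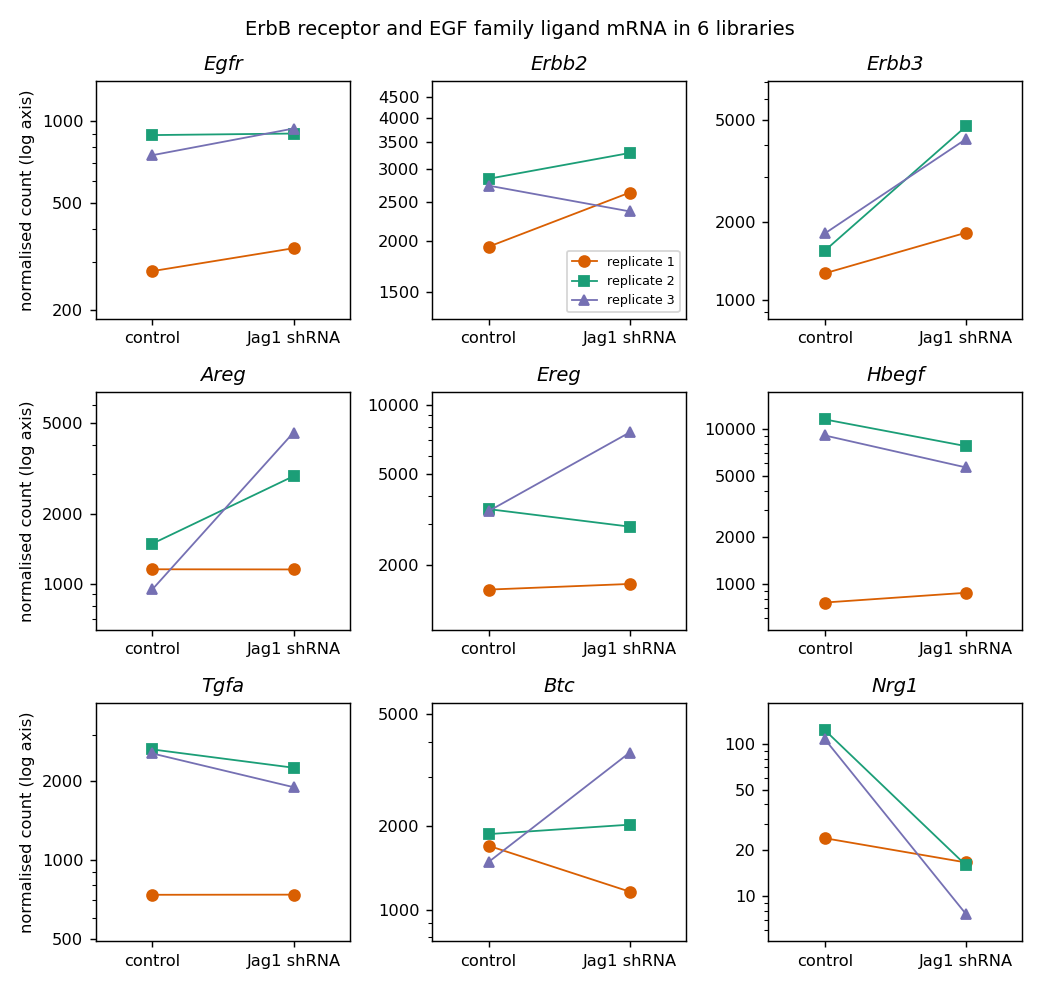
Normalised counts (log axis) of the 3 ErbB receptors and 6 ligands in control and Jag1 shRNA libraries, each point 1 library and each line joining libraries with the same replicate number. Erbb3 lies higher (1822 to 4716 against 1267 to 1810) and Nrg1 lower (7.64 to 16.7 against 24.0 to 122.9) in all knockdown libraries, while Hbegf, Tgfa, Egfr and Ereg separate replicate 1 (circles) from the others in both groups.

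Among the receptors, Erbb3 (ENSMUSG00000018166, chr10:128567523-128589652, minus strand, GRCm38) showed the largest difference. Its normalised counts were 1267, 1552 and 1810 in the controls and 1822, 4716 and 4209 in the knockdowns. The groups did not overlap, though control 3 and knockdown 1 lay next to each other, and knockdowns 2 and 3 stood well above the rest. The mean went from 1543 ± 272 to 3582 ± 1546, a ratio of 2.32, and the ratios within replicates 1, 2 and 3 were 1.44, 3.04 and 2.33. The limma difference was 1.11 (SE 0.38, adjusted p = 0.637), and the replicate term brought the adjusted p to 0.147. Erbb3 was called higher by DESeq2 with that term (1.12, SE 0.25, adjusted p = 6.1e-04) and by limma on replicates 2 and 3 (1.41, SE 0.16, adjusted p = 0.00902). It was not called by DESeq2 without the term (1.22, adjusted p = 0.124). Nor was it called by edgeR without the term (adjusted p = 0.632) or with it (adjusted p = 0.173). The DESeq2 call was lost without pair 2 (0.87, adjusted p = 0.276) and without pair 3 (1.06, adjusted p = 0.117) and kept without pair 1 (1.41, adjusted p = 5.84e-09). Over all 20 alternatives the difference stayed between 0.86 and 1.54, with adjusted p up to 1.

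Of 7 epithelial markers, 3 were called higher by DESeq2 with the replicate term and by limma on replicates 2 and 3. Over all genes these fits called 4.73% and 6.04% higher. The summed normalised count of Krt7, Krt8, Krt18, Krt19, Epcam, Cdh1 and Sox9 ran from 171440 to 238201 in the controls and from 223420 to 580992 in the knockdowns, and DESeq2 with the replicate term called Krt8, Krt19 and Epcam higher and none lower, as did limma on replicates 2 and 3. The keratins make up most of that sum, and the other markers were not called: Krt18 (0.34), Krt7 (0.55), Cdh1 (0.53) and Sox9, which had the opposite sign (-0.18, adjusted p = 0.781 in DESeq2 with the term). Their part in the Erbb3 result was not tested. In bulk RNA, fewer cells of a type and less RNA per cell cannot be told apart. Of markers of other cells, 1 of 6 fibroblast, 1 of 6 immune, 1 of 4 endothelial, 1 of 5 acinar and 0 of 5 endocrine genes were listed in the table. The immune gene, Cd68, stood at 98.6, 136 and 111 in the controls and 117, 988 and 400 in the knockdowns, and it was called higher by DESeq2 with the replicate term (adjusted p = 0.00801).

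Erbb2 (ENSMUSG00000062312, chr11:98412470-98437716, plus strand) differed by less than the spread between libraries. It stood at 1939, 2844 and 2736 in the controls and 2631, 3289 and 2366 in the knockdowns, with means of 2506 ± 494 and 2762 ± 476. Its groups overlapped, and within replicate 3 the knockdown was the lower library. The limma difference was 0.15 (SE 0.22, adjusted p = 0.922) and turned to -0.03 when libraries were scaled to the spike-in RNAs. On replicates 2 and 3 it was 0.00 (SE 0.19, adjusted p = 0.999). Erbb2 shares 9 bp of exon with Mien1 on the opposite strand, and the library kit does not mark strand.

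Egfr (ENSMUSG00000020122, chr11:16752203-16918158, plus strand), the receptor of most of the ligands described here, varied more between replicate numbers than between hairpins. Its counts were 278, 889 and 749 in the controls and 339, 901 and 940 in the knockdowns. Replicate 1 was the lowest library of each group, and replicates 2 and 3 lay 2.94-fold above it in the controls and 2.72-fold above it in the knockdowns. The group means were 639 ± 320 and 726 ± 336, and the limma difference was 0.21 (SE 0.57, adjusted p = 0.965). The knockdown was the higher library in each pair, by 0.28, 0.02 and 0.33. DESeq2 with the replicate term gave an adjusted p of 0.66. On replicates 2 and 3 limma gave 0.17 (SE 0.17, adjusted p = 0.558). Leaving out control 1 turned the limma difference to -0.31.

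Levels of different genes were compared per exon length, as TPM (reads per kilobase of exon, scaled to the same sum in every library), on which the median gene of these libraries stood at 14.6 to 17.1. Erbb2 was the most abundant receptor in the controls (54.7 ± 7.07 TPM), followed by Erbb3 (29.2 ± 3.54 TPM) and Egfr (6.31 ± 2.87 TPM), and the ranges over libraries did not overlap. In the knockdowns, Erbb3 averaged 67.5 ± 28.3 TPM, Erbb2 59.9 ± 6.35 TPM and Egfr 7.29 ± 3.43 TPM. Erbb3 exceeded Erbb2 in knockdowns 2 (83.2 against 67.0 TPM) and 3 (84.4 against 54.8 TPM) but not in knockdown 1 (34.8 against 58.0 TPM). Erbb3 made up 34.7%, 29.2% and 33.7% of receptor TPM in the controls and 36.1%, 52.4% and 56.6% in the knockdowns, so that the groups did not overlap, with knockdown 1 near control 1. Egfr made up 3.6% to 8.9% of receptor TPM in every library. The fourth receptor of the family, Erbb4, was not listed in the table.

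**Figure D2:**
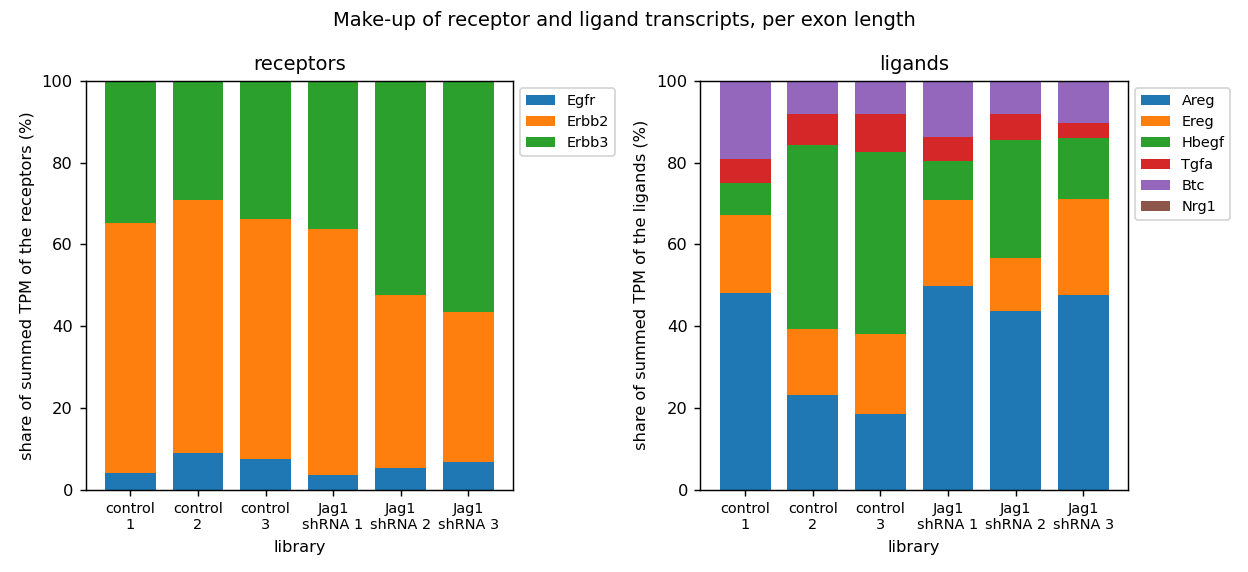
Share (%) of summed TPM that each receptor (left) and each ligand (right) took in each library, with bars adding to 100%. Erbb3 took over 50% of receptor TPM in knockdowns 2 and 3 only, and Hbegf took 45.1% and 44.6% of ligand TPM in controls 2 and 3 against 7.9% in control 1.

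Of the ligands, amphiregulin (Areg, ENSMUSG00000029378, chr5:91139599-91148432, plus strand), which binds EGFR with low affinity, had the highest mean per exon length in the knockdowns. Its counts were 1154, 1492 and 943 in the controls and 1152, 2938 and 4552 in the knockdowns. Knockdown 1 lay at the level of control 1, whereas knockdowns 2 and 3 were the highest of the 6 libraries. The means were 1196 ± 277 and 2881 ± 1700, and the ratios within replicates 1, 2 and 3 were 0.999, 1.97 and 4.83. The limma difference was 1.08 (SE 0.49, adjusted p = 0.699), and DESeq2 with the replicate term gave 1.08 (SE 0.37, adjusted p = 0.0522), just outside the threshold. Areg was called higher on replicates 2 and 3 by limma (1.62, SE 0.30, adjusted p = 0.0303) and, without pair 1, by DESeq2 with the term (1.62, adjusted p = 5.69e-07). Over all 20 alternatives the difference lay between 0.49 and 1.64, with adjusted p up to 1.

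Areg lies on chromosome 5 in a cluster with Ereg and Btc. The 250 bases before the transcription start are shown for Areg and Btc, the cluster's ligands whose promoters the RefSeq table (GRCm38.p6) holds. The counts of these genes were not tested against each other, and a link between motifs and counts was not tested. Capitals mark motif matches on either strand. The Areg stretch is chr5:91139349-91139598 on the plus strand and the Btc stretch is chr5:91402995-91403244 on the minus strand, both written 5′ to 3′.
Areg: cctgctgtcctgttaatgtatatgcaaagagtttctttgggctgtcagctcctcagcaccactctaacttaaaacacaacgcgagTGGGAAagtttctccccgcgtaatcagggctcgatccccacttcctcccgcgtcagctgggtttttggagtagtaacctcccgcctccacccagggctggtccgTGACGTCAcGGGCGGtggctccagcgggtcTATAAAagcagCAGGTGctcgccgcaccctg
Btc: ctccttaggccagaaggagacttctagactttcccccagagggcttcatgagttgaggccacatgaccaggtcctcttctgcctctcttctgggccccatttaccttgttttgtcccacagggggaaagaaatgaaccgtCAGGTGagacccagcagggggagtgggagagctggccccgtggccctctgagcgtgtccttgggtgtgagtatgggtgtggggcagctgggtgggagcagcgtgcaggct
These motifs were searched on both strands: the cAMP response element TGACGTCA, the AP-1 site TGANTCA, the RBPJ core TGGGAA (RBPJ is the DNA-binding partner of Notch), the Zeb and Snail E-box CACCTG, the TATA box TATAAA and the GC box GGGCGG. The Areg promoter held the cAMP response element 61 to 54 bases before the start, the RBPJ core 165 to 160 bases before it, the TATA box 31 to 26 bases before it, the GC box 52 to 47 bases before it and, on the minus strand, the E-box 20 to 15 bases before it. The Btc promoter held an E-box on the minus strand, 110 to 105 bases before the start, and no other motif of the set. Over all 32851 promoters of this length, 1.5% held the cAMP response element, 21.6% the RBPJ core, 17.2% the E-box, 12.4% the TATA box, 32.7% the GC box and 6.7% the AP-1 site. A match says only that these letters stand there. RefSeq promoters were also found for Egfr, Erbb2 and Tgfa, so that 5 of the 9 genes matched. Tgfa held an E-box 197 to 192 bases before its start and 2 GC boxes, Egfr held 1 GC box, and Erbb2 held no motif of the set.

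Btc (ENSMUSG00000082361, chr5:91357261-91402994, minus strand), which binds EGFR and ERBB4, stood at 1696, 1867 and 1484 in the controls and 1162, 2018 and 3655 in the knockdowns. The knockdown libraries held both the lowest and the highest value. The means were 1682 ± 192 and 2278 ± 1267 with a limma difference of 0.29 (SE 0.40, adjusted p = 0.909). Within replicate 3 Btc was 1.30 log2 units higher in the knockdown, and without knockdown 3 the limma difference turned to -0.13. On replicates 2 and 3 alone the difference was 0.71 (SE 0.30, adjusted p = 0.195).

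Ereg (ENSMUSG00000029377, chr5:91074622-91093646, plus strand), another ligand of EGFR and ERBB4, stood at 1553, 3498 and 3429 in the controls and 1644, 2931 and 7590 in the knockdowns. Replicate 1 was the lowest library of each group and knockdown 3 the highest of all. The means were 2827 ± 1104 and 4055 ± 3128, and limma gave 0.32 (SE 0.59, adjusted p = 0.935). Without knockdown 3 the difference was -0.27, and on replicates 2 and 3 it was 0.45 (SE 0.42, adjusted p = 0.546). Ereg overlaps 141 bp of exon with the antisense gene Gm19610, which held only 41.2 to 99.7 normalised counts.

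Areg, Ereg and Btc were thus all highest in knockdown 3, with differences from control 3 of 2.27, 1.15 and 1.30. Within replicate 2 they differed by 0.98, -0.26 and 0.11 and within replicate 1 by -0.00, 0.08 and -0.54. Jag1 was reduced least within replicate 3 (ratio 0.66) and most within replicate 2 (ratio 0.33). A link between these genes and the Jag1 level was not tested. The genes within 500 kb of the cluster that were in the table include Rassf6, the chemokine genes Cxcl5, Ppbp, Pf4, Cxcl3, Cxcl1 and Cxcl2, Mthfd2l, Gm19610 and Parm1. None of the neighbours was called by limma or by DESeq2 with the replicate term. Cxcl5, a chemokine that attracts neutrophils, stood at 719, 40774 and 52045 in the controls and 1554, 12551 and 12453 in the knockdowns. It was called lower on replicates 2 and 3 by limma (-1.88, SE 0.17, adjusted p = 0.00659), where Areg was called higher. Parm1 beside Btc stood at 2693, 3002 and 4598 in the controls and 2597, 3138 and 4448 in the knockdowns.

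Hbegf (ENSMUSG00000024486, chr18:36504927-36515805, minus strand), a ligand of EGFR and ERBB4 that binds heparan sulphate, varied most with the replicate number. Its counts were 757, 11546 and 9094 in the controls and 875, 7758 and 5651 in the knockdowns. Replicates 2 and 3 lay 13.6-fold above replicate 1 in the controls and 7.66-fold above it in the knockdowns. The means were 7132 ± 5655 and 4762 ± 3527, and the limma difference was -0.35 (SE 1.23, adjusted p = 0.973). The differences within replicates 1, 2 and 3 were 0.21, -0.57 and -0.69. DESeq2 with the replicate term gave an adjusted p of 0.434, and only without pair 1 did it call Hbegf lower (-0.63, adjusted p = 0.0145). limma on replicates 2 and 3 did not (adjusted p = 0.122).

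Tgfa (ENSMUSG00000029999, chr6:86195223-86275719, plus strand), a high-affinity EGFR ligand, stood at 735, 2638 and 2546 in the controls and 736, 2246 and 1893 in the knockdowns. It shared the low level of replicate 1 with Hbegf, with replicates 2 and 3 lying 3.53-fold above it in the controls and 2.81-fold above it in the knockdowns. The means were 1973 ± 1073 and 1625 ± 790, with a limma difference of -0.22 (SE 0.62, adjusted p = 0.967). On replicates 2 and 3 it was -0.33 (SE 0.15, adjusted p = 0.228), and Tgfa was called in none of the 20 alternatives. Tgfa shares 118 bp of exon with Gm43917 on the opposite strand, which was not listed in the table.

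Nrg1 (ENSMUSG00000062991, chr8:31814551-32884029, minus strand), the ligand of ERBB3, was the least abundant of the 9 genes and had the largest difference. It stood at 24.0, 122.9 and 107 in the controls and at 16.7, 16.0 and 7.64 in the knockdowns, which rest on 29, 107 and 86 reads and on 19, 13 and 10 reads. The groups did not overlap, and control 1 lay closer to the knockdowns than to the other controls. The means were 84.7 ± 53.1 and 13.4 ± 5.02, a ratio of 0.159, and the ratios within replicates 1, 2 and 3 were 0.694, 0.13 and 0.0713. The limma difference was -2.34 (SE 0.70, adjusted p = 0.606), and the replicate term brought the adjusted p to 0.164. Nrg1 was called lower by DESeq2 without the term (-2.66, adjusted p = 0.0274) and with it (-2.46, SE 0.72, adjusted p = 0.014), by limma on replicates 2 and 3 (-3.26, SE 0.43, adjusted p = 0.013) and by limma without control 1 (-3.08, adjusted p = 0.0377). The DESeq2 call with the term was lost without pair 2 (-2.15, adjusted p = 0.709) and without pair 3 (-1.74, adjusted p = 0.654). Nrg1 passed the filter on low values through the controls. Its knockdowns alone, with knockdown 3 below the limit of 10, would not have met it. The calls of Nrg1 and its lack of overlap are therefore given as a description. Over its 19 alternatives the difference lay between -3.37 and -1.74, with adjusted p from 3.64e-06 to 1. Nrg1 spans 1069.5 kb with 18 annotated transcripts, and these values do not tell its isoforms apart. It shares 482 bp of exon with Gm26578 on the opposite strand, which was not listed in the table. The library kit does not mark strand, so reads of Gm26578 in that stretch cannot be told from reads of Nrg1.

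**Figure D3:**
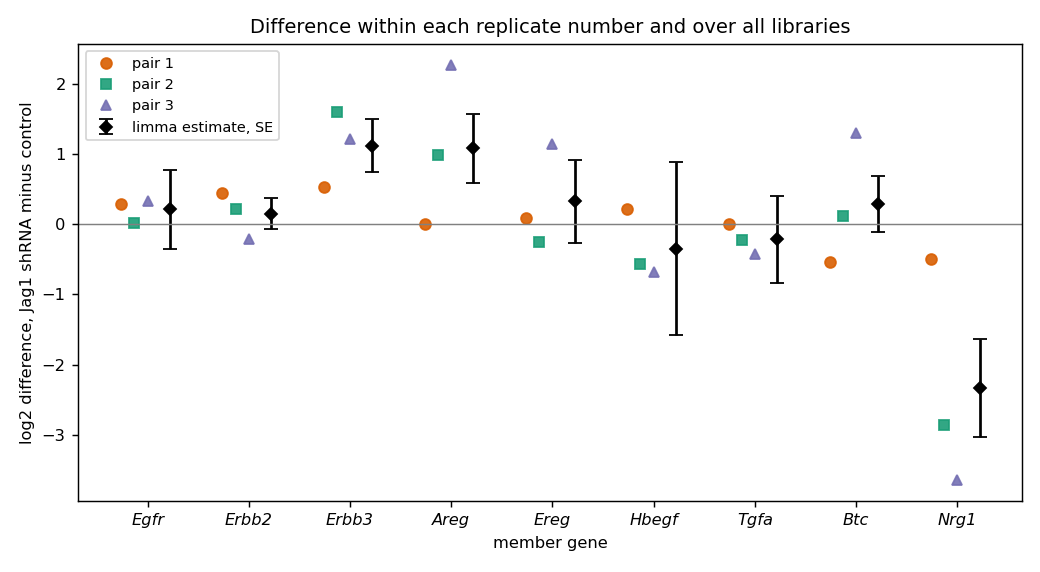
Log2 difference (Jag1 shRNA minus control) of each gene within replicates 1, 2 and 3 (coloured points) and the limma estimate over all 6 libraries with its SE (diamonds). Erbb3 lies above 0 and Nrg1 below 0 in each pair, and in pair 1 none of the 9 differs by more than 1 log2 unit.

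Per exon length, the ligands ran in the controls from Hbegf (163 ± 127 TPM) through Areg (113 ± 24.8), Ereg (77.1 ± 26.0), Btc (42.8 ± 5.76) and Tgfa (34.0 ± 17.1 TPM) to Nrg1 (0.91 ± 0.54 TPM). In the knockdowns Areg came first (272 ± 172 TPM), then Ereg (114 ± 94.2), Hbegf (111 ± 79.2), Btc (58.1 ± 35.2), Tgfa (28.3 ± 13.3) and Nrg1 (0.146 ± 0.05 TPM). Neighbours in these orders overlapped in their ranges over libraries, except Ereg and Btc in the controls, where the lowest Ereg value (47.1 TPM) lay next to the highest Btc value (47.0 TPM), and Nrg1, which was below every other ligand in every library. Control 1 shared its ligand make-up with knockdown 1 and not with the other controls: Areg took 48.1% of ligand TPM in control 1 and 49.9% in knockdown 1, against 23.2% and 18.4% in controls 2 and 3. Hbegf was the leading ligand in controls 2 and 3, with 45.1% and 44.6%. In knockdowns 2 and 3 Areg led with 43.8% and 47.7%, and Hbegf took 29.0% and 14.9%. With the length of the longest transcript in place of all exons, the knockdown mean of Hbegf (138 TPM) passed that of Ereg (85.4 TPM) and the control mean of Tgfa (36.2 TPM) passed that of Btc (35.7 TPM). On that scale Hbegf led Areg in knockdown 2 (39.4% against 35.5%) and stayed behind it in knockdown 3 (22.1% against 42.2%). Summed ligand TPM was 247, 578 and 466 in the controls and 218, 587 and 947 in the knockdowns.

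Of the other family ligands, Egf was at 20.7, 10.3 and 8.72 normalised counts in the controls and 14.9, 2.46 and 6.11 in the knockdowns (limma -0.87, adjusted p = 0.829). The organoids' own Egf transcript thus stood at 0.14 and 0.08 TPM in the groups, in a medium supplied with the protein. Nrg4, a ligand of ERBB4, stood at 169.8, 109 and 129.6 in the controls and 244, 135 and 93.2 in the knockdowns (limma 0.12, adjusted p = 0.973). Epgn, Nrg2 and Nrg3 were not listed in the table.

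The machinery around the receptors was described by 5 lists, which were not tested as sets. limma called none of their genes with or without the replicate term. Over all genes it called 0% without the term and 0.0143% with it, so this says nothing particular about the lists. On replicates 2 and 3 limma called 6.04% of all genes higher and 3.57% lower. Of 12 tested genes for ligand shedding, DESeq2 with the replicate term called 1 higher and 1 lower (all genes: 4.73% and 2.71%). The list's median difference in limma was -0.02. Rhbdl2, a rhomboid protease that can cut EGF family precursors, stood at 307, 260 and 199 in the controls and 391, 833 and 556 in the knockdowns (1.17, SE 0.32, DESeq2 adjusted p = 0.00825). Bace1, an aspartic protease that cuts neuregulin precursors, stood at 2408, 2262 and 2818 in the controls and 1418, 1595 and 1744 in the knockdowns (-0.65, SE 0.17, DESeq2 adjusted p = 0.00606). The groups of either protease did not overlap, and on replicates 2 and 3 alone limma called Rhbdl2 only (adjusted p = 0.0256, against 0.0831 for Bace1). The most abundant genes of the list, Adam9 and the tetraspanin gene Cd9, differed by -0.05 and 0.14 in DESeq2 (adjusted p = 0.939 and 0.73). Adam17, the main sheddase of Areg and Tgfa and named here after its values were seen, stood at 2818, 2175 and 2494 in the controls and 1909, 1659 and 1811 in the knockdowns, and DESeq2 gave -0.47 (adjusted p = 0.0618).

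Of 21 inhibitors and degradation factors of the receptors, DESeq2 with the term called Cblc higher and Lrig1 lower (all genes: 4.73% and 2.71%). The list median in limma was -0.04. Cblc, a ubiquitin ligase of activated EGFR, stood at 1165, 1318 and 1160 in the controls and 1867, 3243 and 1605 in the knockdowns (0.82, SE 0.23, DESeq2 adjusted p = 0.0101). Lrig1, a membrane protein that lowers ErbB receptor levels, stood at 4927, 4847 and 5641 in the controls and 4038, 3089 and 2438 in the knockdowns (-0.71, SE 0.23, DESeq2 adjusted p = 0.0301). Errfi1 (also MIG6), a feedback inhibitor of the EGFR kinase, followed the replicate number like Hbegf, with 4201, 19867 and 19539 in the controls and 4503, 12349 and 11464 in the knockdowns. limma on replicates 2 and 3 called 2 genes of the list lower, Errfi1 (-0.73, adjusted p = 0.0324) and Lrig1 (-0.93, adjusted p = 0.0325), and 1 higher, the phosphatase gene Ptprj (0.83, adjusted p = 0.0361), and did not call Cblc (adjusted p = 0.153). Ptprj stood at 1459, 861 and 1023 in the controls and 1132, 1606 and 1733 in the knockdowns. Within replicate 1 it was lower in the knockdown (-0.37). Epn1, an endocytosis adaptor and the most abundant gene of the list after Errfi1, differed by 0.43 in DESeq2 (adjusted p = 0.0829).

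Of 28 adaptors and core genes of the RAS-MAPK and PI3K routes, DESeq2 with the term called none higher and 2 lower (all genes: 4.73% and 2.71%). The list median in limma was -0.13. Shc1, the adaptor that links ErbB receptors to GRB2 and RAS, stood at 13329, 12406 and 15934 in the controls and 7664, 8714 and 11741 in the knockdowns, without overlap (-0.58, SE 0.17, DESeq2 adjusted p = 0.0145). Gab2, a docking protein for PI3K and SHP2, stood at 118, 356 and 286.5 in the controls and 71.0, 174 and 171 in the knockdowns (-0.84, SE 0.28, DESeq2 adjusted p = 0.0424). limma on replicates 2 and 3 called neither of them (adjusted p = 0.209 for Shc1 and 0.0627 for Gab2) and called 1 gene of the list, Gab1, a relative of Gab2, lower (-1.11, adjusted p = 0.0402). Akt1, the most abundant after Shc1, differed by -0.03 in DESeq2 (adjusted p = 0.967).

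Of 17 early response and feedback genes of ERK signalling, the term-adjusted DESeq2 fit called none higher and 2 lower (all genes: 4.73% and 2.71%). The list median in limma was -0.05. Ier3, an immediate early gene of growth factor signalling, stood at 4478, 35327 and 26499 in the controls and 2942, 21313 and 9328 in the knockdowns (-0.95, SE 0.23, DESeq2 adjusted p = 0.00202). Ccnd1, the cyclin D1 gene, stood at 10292, 17100 and 19258 in the controls and 6978, 13654 and 12860 in the knockdowns (-0.49, SE 0.16, DESeq2 adjusted p = 0.0404). Dusp6, a phosphatase of ERK, stood at 893, 21434 and 18300 in the controls and 839, 9450 and 11702 in the knockdowns. The mean of its replicates 2 and 3 lay 22.2-fold above replicate 1 in the controls and 12.6-fold above it in the knockdowns. On replicates 2 and 3 alone limma called Dusp6 lower (-0.91, adjusted p = 0.0331) and Spry4, a feedback inhibitor of the pathway, higher (1.14, adjusted p = 0.0104). It called neither Ier3 (adjusted p = 0.134) nor Ccnd1 (adjusted p = 0.111) there. Spry4 stood at 1329, 3745 and 3747 in the controls and 1126, 7934 and 8572 in the knockdowns. Within replicate 1 Spry4 was lower in the knockdown (-0.24).

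Of 11 tested partners and regulators of ERBB2 and ERBB3, DESeq2 with the term called 2 higher, Muc1 and Muc4, and none lower (all genes: 4.73% and 2.71%). Muc4 was tested only because its knockdown values were high, which leaves Muc1 as the call of the list. The list median in limma was 0.11. Muc4, whose protein binds ERBB2, stood at 2.48, 8.04 and 12.5 in the controls and 21.9, 113 and 34.4 in the knockdowns (2.78, SE 0.76, DESeq2 adjusted p = 0.00783). Its control values rest on 3, 7 and 10 reads, and it passed the filter on low values through the knockdowns, so its call is given as a description. Muc1, which associates with ErbB receptors, stood at 7862, 8347 and 10348 in the controls and 14151, 22758 and 16330 in the knockdowns (0.98, SE 0.21, DESeq2 adjusted p = 3.92e-04). The groups of Muc1 did not overlap, and the part of the epithelial markers given above was not tested. On replicates 2 and 3 alone limma called 3 genes of the list higher: Muc1 (1.05, adjusted p = 0.0385), the transcription factor gene Foxm1 (1.10, adjusted p = 0.0127) and the epithelial transcription factor gene Elf3 (2.87, adjusted p = 0.0164), and it did not call Muc4 (adjusted p = 0.0619). Elf3 stood at 6575, 1831 and 1714 in the controls and 9486, 20634 and 8092 in the knockdowns. Foxm1 stood at 2319, 991 and 1064 in the controls and 2292, 2165 and 2249 in the knockdowns. Control 1 thus held its highest value, and the difference within replicate 1 was -0.02. The most abundant genes of the list, the chaperones Hsp90ab1 and Hsp90aa1, differed by -0.42 (adjusted p = 0.132) and 0.09 (adjusted p = 0.842) in DESeq2.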

How the data were processed

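RNA of 6 libraries was sequenced after TruSeq preparation, per the labels' protocols. Tools named in the submitters' processing notes are STAR 2.5.2b, Trimmomatic and DESeq2 1.32.0, with the build GRCm38; the counter and annotation are not given in the sources used here. The deposited signal is normalised counts, which the authors made by dividing reads by 1 size factor per library; the whole reads behind it were recovered from the steps of the values (100% whole within 0.001). All 6 deposited tables were identical, and 1 was used. Of 14302 features, 48 were spike-ins. Symbols and positions came from GENCODE M21 (GRCm38) for 14219 of 14254 genes.

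The main test was limma-trend (limma 3.58.1, R 4.3.3) on log2(normalised count + 1) over 13997 genes with at least 10 in at least 3 libraries, with Benjamini-Hochberg adjustment at 0.05. The pseudocount understates changes of low genes. edgeR 4.0.16 and DESeq2 1.42.0 were run on the recovered reads. Scripts were tested on simulated data without a replicate effect, which do not show how the fits behave under the gap of replicate 1. Deviations from group means correlated at 0.677, 0.568 and 0.443 for libraries sharing numbers 1, 2 and 3. The numbers were treated as pairs in the differences within replicate numbers and in the fits with the replicate term. The main test and limma on replicates 2 and 3 held no such term. The gap of replicate 1 thus enters the SE of the main test. The labels give a number no meaning and do not say what makes replicates separate. The p-values therefore measure only the spread between these libraries. Control 3 with knockdown 2 (0.385) and control 2 with knockdown 3 (0.365) passed the same limit of 0.1. With replicate 1 apart in both groups, replicates 2 and 3 deviate to the same side. The correlations therefore do not settle whether 2 pairs with 2 and 3 with 3. Named genes were the 9 ErbB genes, the other family members, and from each list the genes called in any fit used, the 2 with the largest limma difference and the 2 with the highest mean, plus the genes beside Areg, Ereg and Btc and the 2 nearest profiles of each ErbB gene. The ErbB genes and lists were chosen with earlier results of these data known.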

Additional observations from a re-analysis of the deposited data

How the results depend on the processing

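limma called 0 genes in either direction. Higher calls numbered 2 in limma with the replicate block, 2 in edgeR with the block, 102 in DESeq2, 636 in DESeq2 with the block, 77 with spike-in scaling and 846 on replicates 2 and 3; lower calls numbered 75 in DESeq2, 364 in DESeq2 with the block, 39 with spike-in scaling and 500 on replicates 2 and 3. Leaving out 1 library gave 0 to 210 higher and 0 to 84 lower calls, and the highest of each came without control 1. In alternatives chosen after seeing the data, DESeq2 with the block called 1293, 65 and 86 genes higher and 874, 35 and 39 lower without pair 1, 2 and 3. Of the ErbB genes, 1 was called higher by DESeq2 with the block, 2 on replicates 2 and 3 and 2 by DESeq2 with the block without pair 1; 1 was called lower by DESeq2, by DESeq2 with the block and on replicates 2 and 3, 2 by DESeq2 with the block without pair 1, and 0 to 1 with 1 library left out.

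Erbb3, Areg, Nrg1 and Jag1 kept their direction in every alternative run. With 1 library left out, Egfr ranged from -0.31 to 0.69, Erbb2 from -0.03 to 0.25, Ereg from -0.27 to 0.83, Hbegf from -1.60 to 0.62, Tgfa from -0.82 to 0.28 and Btc from -0.13 to 0.70. Erbb2 was -0.03 with spike-in scaling, and without pair 3 DESeq2 with the block gave -0.09 for Ereg and -0.22 for Btc. The cause was not tested. Spike-in scaling moved the median of all genes by -0.18. A filter at 50 left no value for Nrg1, whose knockdown libraries held 10 to 19 reads.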

Other observations

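The genes whose profile over the 6 libraries lay nearest to each ErbB gene are given by the root mean square difference of log2 values after each gene was centred on its own mean, over genes with a mean of at least 50 normalised counts. All profiles share the same 6 libraries and the gap of replicate 1. Nearest to Erbb3 were Neu1 (0.13), a lysosomal sialidase, and Abhd18 (0.14), where Erbb3 itself varied by 0.72 around its mean. Nearest to Areg were Atp6v1c2 (0.23), a subunit of the vacuolar proton pump, and Capn2 (0.25), a calpain protease, against 0.82 for Areg itself. Nearest to Nrg1 were Lgi2 (0.26) and Sardh (0.33), against 1.42 for Nrg1 itself. Hbegf, which varied most (1.60), lay nearest to Fgd3 (0.15) and Cd34 (0.18), and Tgfa to the membrane chemokine gene Cx3cl1 (0.07) and Trib2 (0.08). Ereg lay nearest to Acot2 and Epg5 (both 0.21), Btc to Tmem263 and Slc25a24 (both 0.09), Egfr to Fam107b (0.12) and Echdc3 (0.13), and Erbb2, which varied least (0.24), to Bicra (0.03) and Ccdc85b (0.05).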
